A study of Mus musculus with 4 samples.

Results

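Hair follicles begin as placodes, local thickenings of the embryonic epidermis, and each placode recruits a cluster of dermal cells beneath it, the dermal condensate, which later becomes the dermal papilla. Wnt signals start the process, ectodysplasin (Eda) acting through its receptor Edar sharpens the placode pattern through the transcription factor NF-kappaB, and Fgf20 made by the placode calls the dermal cells together. Transcription factors such as Lhx2 and Sox9 in the epithelium and Sox2, Tbx18 and Trps1 in the mesenchyme then mark or direct the growing follicle. The 33 genes described here are ectodysplasin, FGF and transcription factor genes of the hair placode, follicle epithelium and dermal condensate. They were chosen by name, with earlier results of these data known. For each, the brightest probe set by mean over the arrays was taken among those annotated to that gene symbol alone. This gave a value for 32 of the 33 genes, out of 19938 genes with such a probe set. Enpp2, a secreted enzyme that makes lysophosphatidic acid, had no such probe set and is not analysed here.

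Skin was isolated from mouse embryos at E16.5, before birth and while hair follicles still form, and its total RNA was measured on 4 Affymetrix arrays, 2 for Ovol2 BT and 2 for control, with 2 mice pooled on each. Ovol2 BT embryos carried TRE-Ovol2-Flag, a tetracycline-responsive transgene for the zinc finger transcription factor Ovol2, together with K5-tTA, a transactivator driven by the keratin 5 promoter of basal keratinocytes. Control embryos carried TRE-Ovol2-Flag alone or were wild type. A control with K5-tTA alone was not analysed here. The strain is labelled FVB/N on the Ovol2 BT arrays and CB6F1 on the control arrays, so genotype and labelled strain cannot be told apart. The comparison asks which transcripts differ early, at an age when, by the series' design text, the 2 genotypes hardly differed in morphology.

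All 4 arrays are labelled female, but the Y-linked genes Uty, Kdm5d and Eif2s3y were high on replicate 1 of both genotypes and low on replicate 2 of both. Kdm5d had intensities of 814 and 11.8 on Ovol2 BT replicates 1 and 2, against 669 and 38.1 on control replicates 1 and 2. The 2 replicates of each genotype therefore differ in this Y-linked signal, and by it each genotype holds 1 array of each kind. Xist, the RNA of X inactivation, had intensities of 312 and 1773 on Ovol2 BT replicates 1 and 2. On control replicates 1 and 2 it had 118 and 9142, so the 2 arrays low in Y-linked signal were not alike. Ovol2 BT replicate 2 also stood apart, with 894 of 14953 genes over 2-fold below the mean of the other 3 arrays, against 30 to 43 genes on each of those. Trps1 and Fgf7 were the 2 hair genes among the 894. Ovol2 itself, the overexpressed gene, had intensities of 7799 and 7949 on the Ovol2 BT arrays, against 176 and 297 on the control arrays. Keratin genes of the epidermis and collagen genes of the dermis were bright on every array. Krt5, a basal keratin, had intensities of 7523 and 7928 in Ovol2 BT skin and 14222 and 13988 in control skin, while Col1a1 had 11722 and 12246 in Ovol2 BT skin and 11553 and 11595 in control skin.

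Levels below are the deposited intensities, and differences are Ovol2 BT minus control on the scale of log2(intensity + 16), from limma's moderated test over 14953 genes with Benjamini-Hochberg adjusted p-values. A gene counts as changed at an adjusted p under 0.05. Of the 33 hair genes 31 were tested, since the transcription factor Foxc1 was under the filter on dim genes. Of the 31, 30 had both group means above that filter, the exception being Eda2r. None of the 31 changed. Over all genes tested 4 changed, which is 0.0268%, namely Ovol2, Krt6b, Krt8 and, lower, Akr1d1. At an unadjusted p under 0.05, 6 of the 31 stood out, 19.4% against a background of 4.22%. Lhx2, Edar, Trps1 and Fgf20 were the 4 lower ones (12.9%, background 1.73%), and Sox9 and Crabp1 the 2 higher ones (6.45%, background 2.49%). Because the list was chosen with earlier results known, its shares beside the background are a description and carry no test.

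Lower values prevailed among the hair genes. Both Ovol2 BT arrays lay below both control arrays for 16 of 31 genes (51.6%), where the background over all genes tested was 14.1%. Both lay above both control arrays for 5 of 31 (16.1%), with a background of 20.1%. The difference was below 0 for 21 of 31 (67.7%), with a background of 45.6%. The median difference was -0.18 over the 31 hair genes and 0.03 over all genes tested. The hair genes' median was -0.0884 without control replicate 1, and -0.0413 over the 22 genes left by a filter at the 50th percentile. These shares describe the arrays at hand, for a list chosen with earlier results of these data known. Members that share cells or signals do not count as independent. In whole skin, fewer cells of a type and less RNA per cell cannot be told apart.

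**Figure D1:**
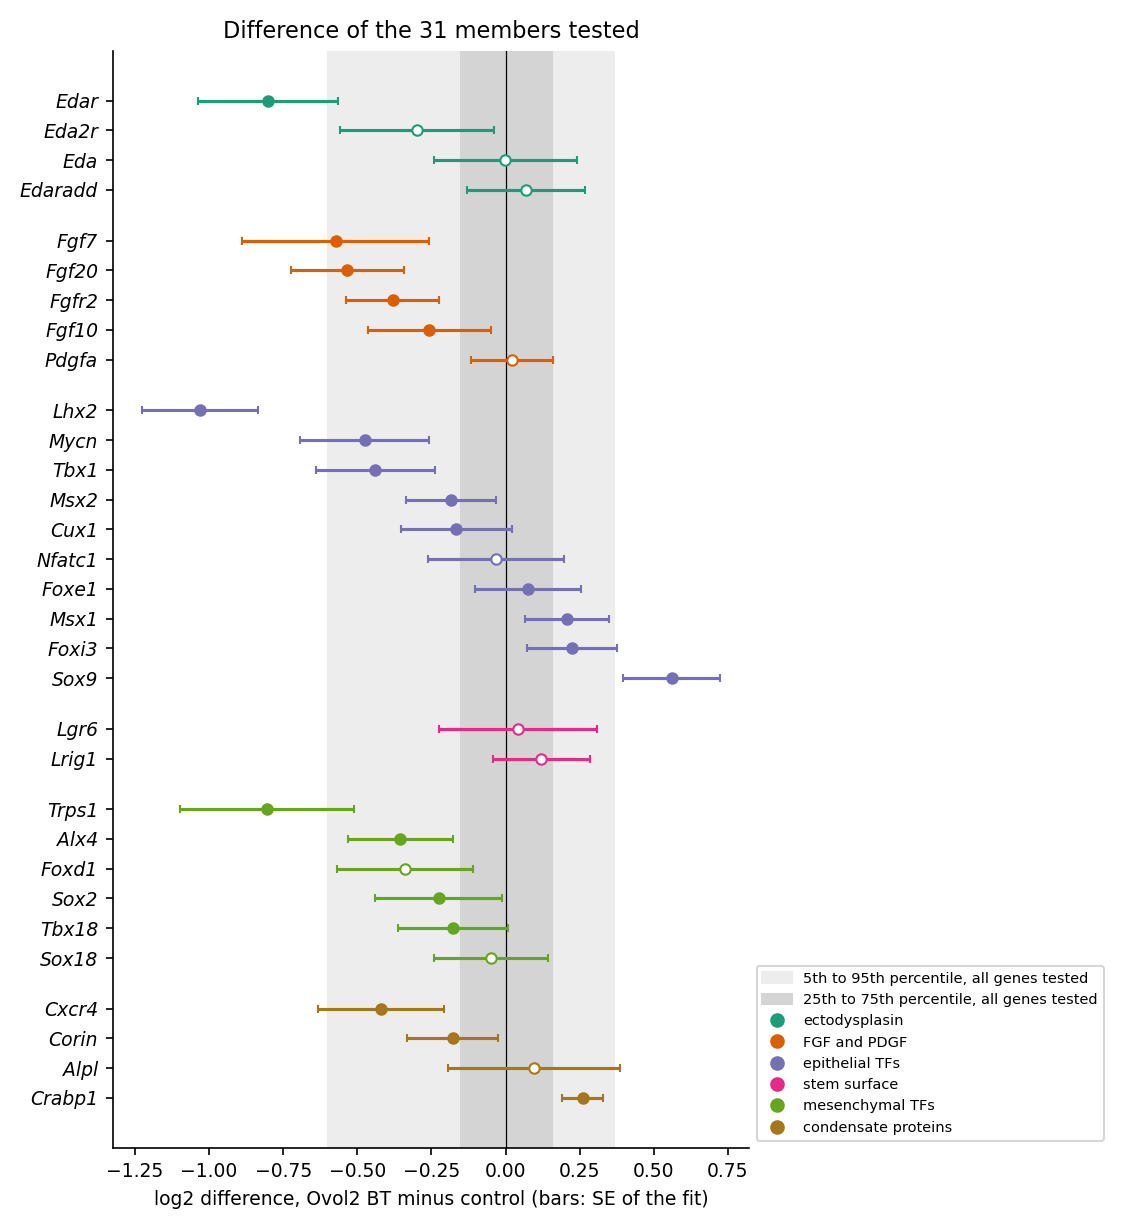
Log2 difference, Ovol2 BT minus control, of the 31 hair genes tested, grouped by role, with the standard error of the fit; filled symbols mark genes whose 2 Ovol2 BT arrays both lie outside the range of the 2 control arrays on the same side, open symbols the others, and grey bands the spread of all 14953 genes tested. Lhx2 (-1.03), Trps1 (-0.80) and Edar (-0.80) lie farthest to the left and Sox9 (0.56) farthest to the right.

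Among the 4 ectodysplasin genes of the hair list, only the receptor gene Edar had groups apart. Edar, the receptor for the A1 form of ectodysplasin, had intensities of 381 and 546 in Ovol2 BT skin, against 775 and 839 in control skin. Both Ovol2 BT arrays were below both controls, and the difference of -0.80 (SE 0.24, limma adjusted p = 0.906) did not pass. It was -1.05 without Ovol2 BT replicate 2 and -0.55 without Ovol2 BT replicate 1. Eda, the X-linked ligand, had 451 and 663 in Ovol2 BT skin and 545 and 549 in control skin, so the Ovol2 BT arrays lay on either side of the controls. Edaradd, the adaptor that links Edar to NF-kappaB signalling, differed by 0.07 (SE 0.20), and its groups overlapped at 871 and 1065 in Ovol2 BT skin and 899 and 936 in control skin. Eda2r, the X-linked receptor for the A2 form, was dim, with 173 and 113 in Ovol2 BT skin and 213 and 145 in control skin. Within each genotype Eda2r was higher on the array with Y-linked signal, and its groups overlapped. The test of the difference between these 4 genes' responses was not made.

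The genes that lie between the ectodysplasin receptors and NF-kappaB did not follow Edar as a list. Of 18 listed, 14 were tested and 0 changed, and the median difference was 0.06. At an unadjusted p under 0.05, 1 was lower and 0 higher, with backgrounds of 1.73% and 2.49%. The lower one was Tnfrsf19 (Troy), a relative of Edar in the tumour necrosis factor receptor family, with 1326 and 1330 in Ovol2 BT skin and 1950 and 2219 in control skin. Its difference was -0.64 (SE 0.17, limma adjusted p = 0.799). Nfkb2, an NF-kappaB subunit, was at 729 and 919 in Ovol2 BT skin, against 596 and 588 in control skin (0.46, SE 0.20; 0.29 without Ovol2 BT replicate 2). Cyld, a deubiquitinase that restrains NF-kappaB, differed by -0.59 (SE 0.45), a value that came from Ovol2 BT replicate 2 and was 0.11 without it.

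Of the 5 FGF and PDGF genes among the hair genes, the 4 FGF genes had lower values on both Ovol2 BT arrays than on either control array, an order that 14.1% of all genes tested showed, and the groups of Pdgfa overlapped. Fgf20, the placode ligand that induces the dermal condensate, had 278 and 214 in Ovol2 BT skin and 365 and 356 in control skin. Its difference was -0.53 (SE 0.19, limma adjusted p = 0.906), and -0.71 without Ovol2 BT replicate 1, but -0.35 without Ovol2 BT replicate 2. Fgf10, made by dermal cells, had 469.6 and 432 in Ovol2 BT skin and 613 and 477 in control skin, so that the lower control came close to the Ovol2 BT range. Its difference of -0.26 (SE 0.21) was -0.0817 without control replicate 1. Fgf7, keratinocyte growth factor, also of dermal origin, had 251 and 124 in Ovol2 BT skin and 277 and 268 in control skin. Most of its difference of -0.57 (SE 0.32, adjusted p = 0.906) came from Ovol2 BT replicate 2. Without that array it was -0.11, and without Ovol2 BT replicate 1 it was -1.04. Fgfr2, whose epithelial splice form is the receptor for Fgf7 and Fgf10, had 2633 and 2481 in Ovol2 BT skin and 3026 and 3672 in control skin. Its difference was -0.38 (SE 0.16, adjusted p = 0.906), and -0.24 without control replicate 2. The probe set does not tell the splice forms apart in the annotation used here. Pdgfa, a ligand of hair placodes and epidermis that acts on the dermis, had 3099 and 3605 in Ovol2 BT skin and 3242 and 3338 in control skin.

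Other genes of FGF signalling went both ways. Of 22 listed, 20 were tested and 0 changed, with a median of 0.04. At an unadjusted p under 0.05, 2 were higher, Etv4 and Fgf18, and 0 lower, with backgrounds of 2.49% and 1.73%. Fgf18, a further FGF ligand, had 880 and 1002 in Ovol2 BT skin and 619 and 624 in control skin (0.58, SE 0.19). Etv4, a transcription factor gene induced by FGF receptor signalling, had 342 and 589 in Ovol2 BT skin and 195 and 166 in control skin (1.25, SE 0.28, limma adjusted p = 0.704). Its relative Etv5 differed by -0.23 (SE 0.22), and by -0.0282 without Ovol2 BT replicate 1. Fgf1 differed by 1.67 (SE 0.94) only through 1 array, since it had 453 and 522 in Ovol2 BT skin and 441 and 38.8 in control skin. Without that control array, replicate 2, its difference was 0.14. Spred1, an inhibitor of the FGF and Ras pathway, differed by -0.63 (SE 0.34), and by -0.15 without Ovol2 BT replicate 2. Of the 5 other PDGF genes 0 changed and 0 had an unadjusted p under 0.05. Pdgfc was at -0.37 (SE 0.25), -0.13 without Ovol2 BT replicate 2, while Pdgfb was at 0.26 (SE 0.23), or 0.02 without that array, and the receptor gene Pdgfrb at 0.18 (SE 0.15), or 0.0757 without that array.

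**Figure D2:**
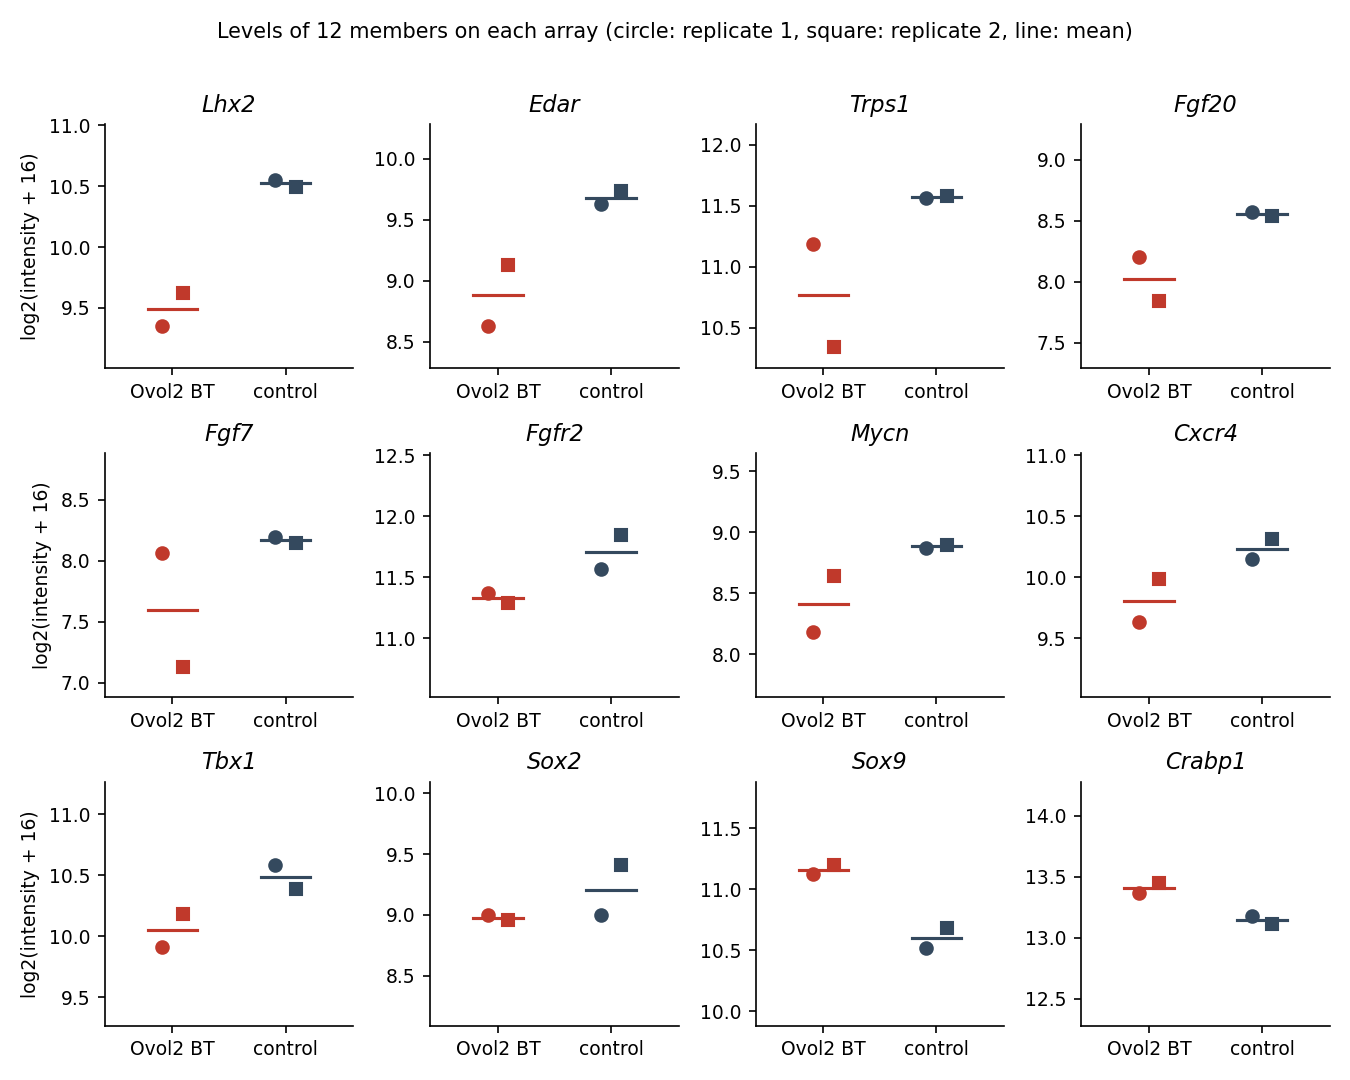
Levels of 12 hair genes as log2(intensity + 16) on each array, Ovol2 BT left and control right; circles are replicate 1, squares replicate 2 and lines group means, and every panel spans 2 log2 units. The 12 were drawn from the hair genes whose groups do not overlap, and the 10 tested genes with overlap are not shown. Of all genes tested, 14.1% had groups apart and lower and 20.1% apart and higher. The gap is widest for Lhx2 and narrowest for Sox2. Trps1 and Fgf7 differ strongly between the 2 Ovol2 BT arrays.

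Lhx2, a LIM homeodomain transcription factor of placodes and follicle progenitors, differed more than any other hair gene. It had intensities of 638 and 774 in Ovol2 BT skin, against 1479.9 and 1428 in control skin. Both Ovol2 BT arrays lay far below both controls, and the ratio of Ovol2 BT to control was 0.489. The difference was -1.03 (SE 0.20, limma adjusted p = 0.498), and 0.863% of all genes tested had a more negative one. It passed in both fits that left out an Ovol2 BT array, at -0.90 (adjusted p = 0.00483) without replicate 1 and -1.17 (adjusted p = 0.0131) without replicate 2, although not with all 4 arrays. Those fits take the spread of the single remaining Ovol2 BT array from the controls, and 16.4% and 0.716% of all genes passed. The 5 genes outside the list whose centred levels over the 4 arrays lay nearest to those of Lhx2 were Nmnat2, Large2, Krt5, Sox6 and Cstdc6, at Euclidean distances of 0.19 to 0.24 log2 units. Krt5 was at -0.87 (SE 0.06, adjusted p = 0.0600) and Krt14, another basal keratin, at -0.66 (SE 0.11). The 10 keratinocyte markers together had summed intensities of 68837 and 66410 in Ovol2 BT skin and 82511 and 84360 in control skin, and 0 of them changed. The 3 basal keratin genes Krt5, Krt14 and Krt15 (-1.41, SE 0.13) had the most negative differences of the 10, while the other 7 lay between -0.21 (Trp63) and 0.07 (Cdh1). Their part in the Lhx2 value was not tested.

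Sox9, a transcription factor of early follicle progenitors and later of the outer root sheath, lay in the other direction. Its intensities were 2219 and 2332 in Ovol2 BT skin, against 1449 and 1630 in control skin. The difference was 0.56 (SE 0.16, limma adjusted p = 0.902), between 0.48 and 0.64 with any 1 array left out. Without Ovol2 BT replicate 1 it was 0.60. The control arrays differed from each other by less than the gap between the groups.

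Other epithelial transcription factor genes had differences of both signs. Mycn, a growth-promoting Myc family member, had 274 and 384 in Ovol2 BT skin and 454 and 462 in control skin (-0.48, SE 0.22; -0.24 without Ovol2 BT replicate 1). Tbx1, a T-box factor of hair stem cells, had 946 and 1147 in Ovol2 BT skin and 1519 and 1323 in control skin (-0.44, SE 0.20). Msx2, a homeobox gene downstream of BMP signals, had 247 and 231 in Ovol2 BT skin and 275 and 272 in control skin (-0.18, SE 0.15). In these 3 genes the groups were apart with the Ovol2 BT arrays lower, an order that 14.1% of all genes tested showed. Cux1 (-0.17, SE 0.19, or -0.0725 without Ovol2 BT replicate 1) had the same order with a small gap, at 921 and 1051 in Ovol2 BT skin and 1146 and 1067 in control skin. Foxc1, which maintains hair stem cell quiescence, was under the filter and not tested, with 107 and 117 in Ovol2 BT skin and 172 and 145 in control skin.

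Foxi3, Foxe1 and Msx1 had both Ovol2 BT arrays above both controls, by small gaps. Of all genes tested, 20.1% showed that order. Foxi3, a forkhead factor that acts downstream of ectodysplasin in placodes, had 2467 and 2795 in Ovol2 BT skin and 2188 and 2303 in control skin (0.23, SE 0.15, or 0.14 without Ovol2 BT replicate 2). Foxi3 and Edar, the receptor of the same pathway, thus lay on opposite sides of the controls, and the difference between them was not tested. Msx1 (0.21, SE 0.14, or 0.12 without control replicate 1) was dim at 182 and 189 in Ovol2 BT skin and 149 and 169 in control skin. Foxe1, a forkhead factor needed for hair follicle shape, differed by 0.08 (SE 0.18), with 853 and 832 in Ovol2 BT skin and 787 and 811 in control skin. Nfatc1, a regulator of hair stem cell quiescence, had 867 and 1218 in Ovol2 BT skin and 1052 on each control array, so that the Ovol2 BT arrays fell on both sides. None of these genes changed (limma adjusted p of 0.906 or above).

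Surface proteins of follicle stem and progenitor cells showed no direction. Lgr6, a receptor for R-spondins, had 993 and 1563 in Ovol2 BT skin and 1131 and 1294 in control skin. Lrig1, which damps EGF receptor signalling, had 2424 and 2948 in Ovol2 BT skin and 2372 and 2549 in control skin. Ovol2 BT replicate 2 was the highest array for both, and the groups overlapped.

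Further placode genes outside the list went both ways. Of 23 listed, 21 were tested and 0 changed, with a median of 0.07. At an unadjusted p under 0.05, 4 were higher and 4 lower, with backgrounds of 2.49% and 1.73%. Those higher were Bmp2, Sostdc1, Krt17 and Sp5, and those lower Shh, Lef1, Ctnnb1 and Cxcl14. Bmp2, a placode signal, had 1795 and 1741 in Ovol2 BT skin, against 994 and 857 in control skin (0.93, SE 0.18, limma adjusted p = 0.565). Sostdc1, a secreted BMP and Wnt inhibitor of the epidermis around placodes, had 5181 and 5097 in Ovol2 BT skin and 2720 and 3551 in control skin (0.72, SE 0.16). Shh, the placode signal to the condensate, had 375 and 561 in Ovol2 BT skin, against 691 and 741 in control skin (-0.62, SE 0.25, or -0.34 without Ovol2 BT replicate 1). Shh thus had the same order of groups as Edar, Lhx2 and Fgf20, and Bmp2 the opposite one.

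The 6 transcription factor genes of condensate and mesenchyme among the hair genes all had negative differences, with a background of 45.6%. Their groups were apart for 4, with a background of 14.1%. For Sox2, 1 of the 4, the nearest arrays of the groups were at 494.9 and 495.9. Sox18, at -0.05 (SE 0.19), was at 0.16 without Ovol2 BT replicate 1. Of 24 other condensate genes tested, described below, 14 had negative and 10 positive differences. Trps1, a GATA-type repressor needed for hair follicles, had 2318 and 1279.7 in Ovol2 BT skin and 3004 and 3041 in control skin. Its difference was -0.80 (SE 0.29, limma adjusted p = 0.906), -0.38 without Ovol2 BT replicate 2 and -1.23 without Ovol2 BT replicate 1. A dimmer probe set of Trps1 gave 1298 and 290.5 in Ovol2 BT skin and 1744 and 1945 in control skin, so both probe sets were lowest on Ovol2 BT replicate 2. The 5 genes nearest to Trps1 in pattern over the 4 arrays were Csgalnact1, Sgcd, Caprin2, Nsun3 and Apool, at distances of 0.06 to 0.11 log2 units.

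Alx4, an aristaless-type homeobox gene of skin mesenchyme, had 195 and 242 in Ovol2 BT skin and 296 and 269 in control skin (-0.35, SE 0.18, or -0.21 without Ovol2 BT replicate 1). Sox2, a marker of the condensate of some hair types and also of Merkel cells and Schwann cells, had 495 and 482 in Ovol2 BT skin and 496 and 665 in control skin. Control replicate 2 made nearly all of its difference of -0.23 (SE 0.22), which was -0.02 without that array. Atoh1, the Merkel cell transcription factor, had 198 and 150.3 in Ovol2 BT skin and 280.3 and 303 in control skin (-0.71, SE 0.18, limma adjusted p = 0.790), whereas Sox10 of Schwann cells and melanocytes differed by 0.00 (SE 0.23). The 10 Merkel markers had summed intensities of 12570.1 and 13696 in Ovol2 BT skin and 4571 and 4459 in control skin. Krt8, also a keratin of periderm and 1 of the 4 changed genes, made up 9389 and 10662 of this in Ovol2 BT skin and 2037 and 1901 in control skin. Krt18, a further marker of that list, had 926 and 845 in Ovol2 BT skin and 425 and 335 in control skin (1.20, SE 0.21). Of the 8 Merkel markers tested, 5 had positive and 3, with Atoh1 among them, negative differences, and the median was 0.20. The 8 measured Schwann cell and nerve markers had sums of 16696 to 18588 in Ovol2 BT skin and 16738 to 16837 in control skin. The part of these cells in the Sox2 value was not tested.

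Tbx18, a T-box gene of the condensate, had 608 and 604 in Ovol2 BT skin and 732 and 645 in control skin (-0.18, SE 0.19, or -0.0884 without control replicate 1). Foxd1, a forkhead gene of the condensate, had 243 and 329 in Ovol2 BT skin and 413 and 318 in control skin, and its groups overlapped. Sox18, expressed in the condensate and in endothelium, had 1986 and 2645 in Ovol2 BT skin and 2469 and 2279.98 in control skin, with overlap too. Endothelial markers had sums of 17472 and 19475 in Ovol2 BT skin and 16855 and 17952 in control skin, the higher sum in each genotype being on replicate 2.

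Enzymes, receptors and binding proteins of the condensate and papilla had no common direction. Crabp1, a retinoic acid binding protein of the papilla and upper dermis, was bright, at 10561 and 11156 in Ovol2 BT skin and 9272 and 8854 in control skin. The difference of 0.26 (SE 0.07, limma adjusted p = 0.799) was small, and the groups were apart. Without Ovol2 BT replicate 1 it was 0.30. Cxcr4, the chemokine receptor of condensate cells and also of endothelium and leukocytes, had 778 and 995 in Ovol2 BT skin and 1117 and 1253 in control skin (-0.42, SE 0.21, or -0.25 without Ovol2 BT replicate 1). Corin, a protease of the dermal papilla, had 237 and 221 in Ovol2 BT skin and 251 and 271 in control skin (-0.18, SE 0.15). Alpl, tissue-nonspecific alkaline phosphatase, a classical papilla enzyme, had 364 and 628 in Ovol2 BT skin and 469 and 425 in control skin, with overlap.

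Marker genes of other skin cells give the makeup beside which these values stand. The 10 fibroblast markers had sums of 82196 and 74540 in Ovol2 BT skin and 79993 and 78279 in control skin. Macrophage and myeloid markers had higher sums in Ovol2 BT skin, at 13143 and 14907, than in control skin, at 11220.0 and 9723, while Cxcr4 lay lower. Skeletal muscle markers followed the array and not the genotype, with sums of 28417 and 55273 in Ovol2 BT skin and 51137 and 29535 in control skin. The 5 measured erythroid markers had sums of 3995 and 14876 in Ovol2 BT skin and 3415 and 6815 in control skin, highest on Ovol2 BT replicate 2. Melanocyte markers had sums of 7641 and 8014 in Ovol2 BT skin and 8692 and 9372 in control skin. Sums of lymphocyte (0.91), cartilage and bone (1.02), smooth muscle and pericyte (1.05) and adipocyte (1.08) markers are given as ratios of Ovol2 BT to control. No measured marker in any of these lists was at 0 on any array. The part of these cells in the values of the hair genes was not tested.

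Of other condensate genes outside the list, Hhip, Ptch1 and Dkk1 stood out on the lower side. Of 27 listed, 24 were tested and 0 changed; 3 were lower and 0 higher at an unadjusted p under 0.05, with backgrounds of 1.73% and 2.49%, and the median was -0.07. Hhip, an inhibitor and target of hedgehog signals, had 310 and 299.8 in Ovol2 BT skin and 496 and 497 in control skin (-0.68, SE 0.17, limma adjusted p = 0.766). Dkk1, a Wnt inhibitor, had 753 and 1018 in Ovol2 BT skin and 1259 and 1646 in control skin (-0.71, SE 0.25). Ptch1 had 3830 and 3853 in Ovol2 BT skin and 4802 and 5146 in control skin (-0.37, SE 0.11). Inhba, an activin subunit gene that is not 1 of the 3, had the most negative difference of the list but overlapping groups. It had 527 and 163 in Ovol2 BT skin and 461 and 617 in control skin. Its difference of -0.82 (SE 0.53) was -0.02 without Ovol2 BT replicate 2. The 5 related lists had medians between -0.07 and 0.07, against -0.18 for the hair genes, and this contrast carries no test because the members were chosen with results known.

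**Figure D3:**
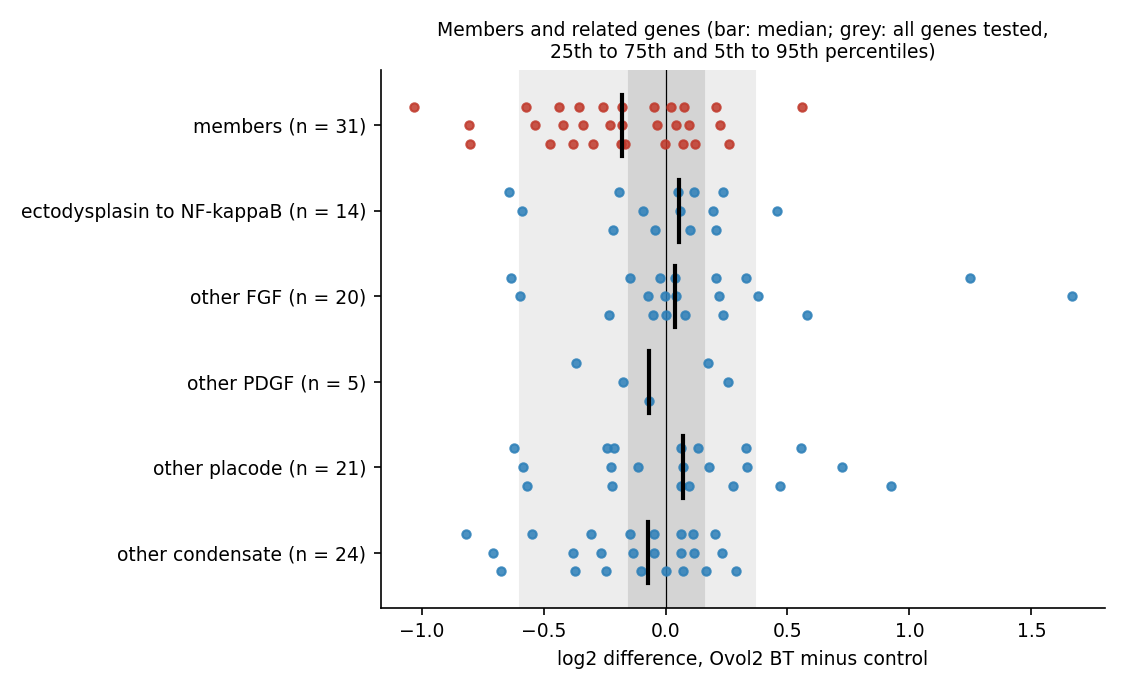
Log2 differences, Ovol2 BT minus control, of the 31 hair genes tested and of 5 lists of related genes; each point is a gene, black bars are medians, and grey bands show the 25th to 75th and 5th to 95th percentiles of all 14953 genes tested. The median of the hair genes, -0.18, is left of the medians of the related lists, which run from -0.07 to 0.07.

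The arrays of Ovol2 BT skin gave a like median but not always the same genes. Against the control mean, the median of the 31 hair genes was -0.25 on replicate 1 and -0.18 on replicate 2, while that of all genes tested was 0.00 and 0.08. Values were below the control mean on both Ovol2 BT arrays for 18 genes, with a background of 22.9%, and above it on both for 5, with a background of 30.7%. Edar, Mycn, Cxcr4, Tbx1 and Alx4 lay farther below on replicate 1. Trps1, Fgf7, Fgf20 and Eda2r lay farther below on replicate 2, the array that stood apart. Lhx2 and Fgfr2 lay at similar distances on both, as did Sox9 and Crabp1 on the higher side.

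**Figure D4:**
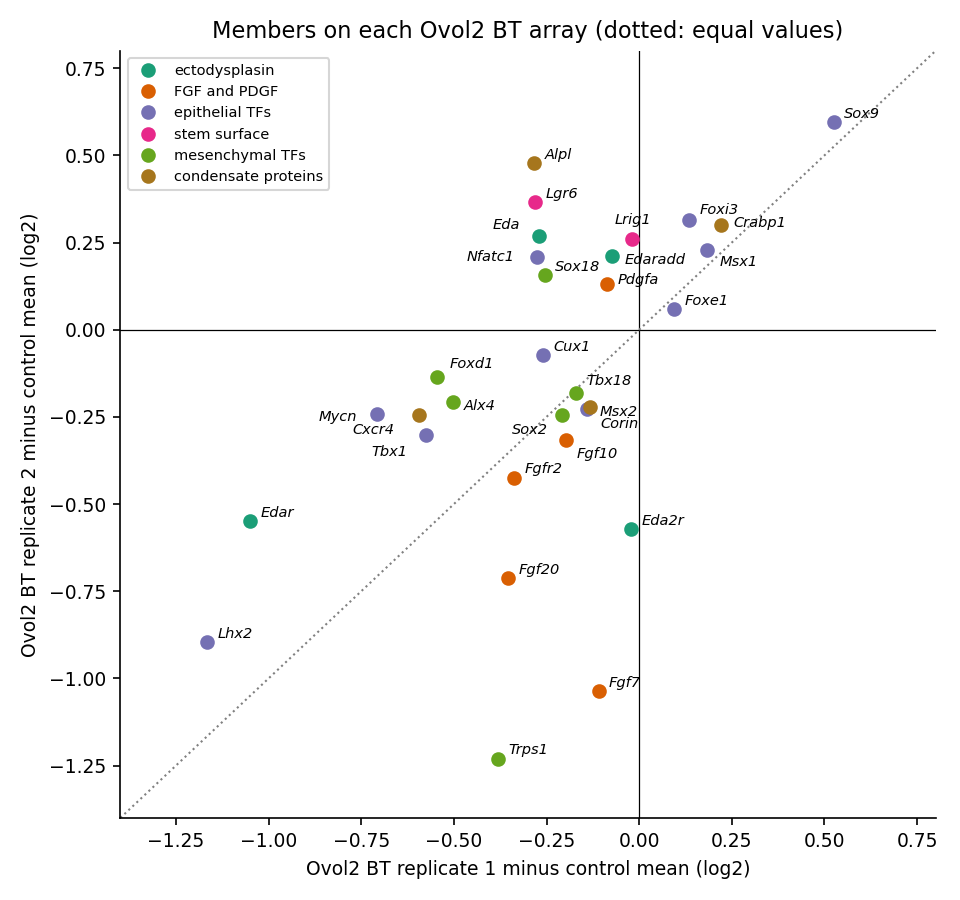
Each hair gene tested as its log2 difference from the control mean on Ovol2 BT replicate 1 (x axis) and replicate 2 (y axis), coloured by role; the dotted line marks equal values. At the lower left 18 genes are below the control mean on both arrays, with Lhx2 at -1.17 and -0.90, whereas Trps1 (-0.38 and -1.23) and Fgf7 (-0.11 and -1.04) depend on replicate 2.

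Promoter windows were taken from RefSeq on build GRCm38.p6 as the 250 bases before each listed start, and 25 of the 33 genes had 29 such windows. They were searched on both strands for CCGTTA, the core bound by Ovol1 and Ovol2 in published binding studies, whose reverse complement is TAACGG. It was in 2 of 29 windows (6.90%), against 2.18% of all 32851 windows in the table. The 2 were the window of Fgf7 and 1 of the 2 windows of Pdgfa. CTTTGAT, a core for TCF and LEF factors of the Wnt pathway that was added after the values were seen, was in 1 window, that of Edar (3.45%), and in 3.21% of all windows. The motifs do not overlap each other. The windows of Lhx2 (first of 2 starts) and Edar are shown because these genes differed most among the epithelial members, and those of Fgf7 and Pdgfa because they hold the Ovol core. They read 5′ to 3′ on the strand of the gene, with either motif in capitals.
Lhx2, chr2:38339031-38339280, plus strand: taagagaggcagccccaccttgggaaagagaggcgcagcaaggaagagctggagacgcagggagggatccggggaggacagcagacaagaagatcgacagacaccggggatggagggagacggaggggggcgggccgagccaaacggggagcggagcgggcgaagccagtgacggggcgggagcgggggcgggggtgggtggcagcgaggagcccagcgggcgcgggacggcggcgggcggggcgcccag
Edar, chr10:58675697-58675946, minus strand: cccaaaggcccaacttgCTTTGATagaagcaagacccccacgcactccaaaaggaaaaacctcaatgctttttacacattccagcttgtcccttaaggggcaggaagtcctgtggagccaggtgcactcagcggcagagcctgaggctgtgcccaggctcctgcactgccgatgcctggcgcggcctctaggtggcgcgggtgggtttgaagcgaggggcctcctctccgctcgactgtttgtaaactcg
Fgf7, chr2:126034408-126034657, plus strand: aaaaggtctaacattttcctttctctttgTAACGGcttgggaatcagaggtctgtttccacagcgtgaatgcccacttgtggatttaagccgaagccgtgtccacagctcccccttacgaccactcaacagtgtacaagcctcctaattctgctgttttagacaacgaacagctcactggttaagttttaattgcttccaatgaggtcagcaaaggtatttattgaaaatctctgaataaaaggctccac
Pdgfa, chr5:138994282-138994531, minus strand: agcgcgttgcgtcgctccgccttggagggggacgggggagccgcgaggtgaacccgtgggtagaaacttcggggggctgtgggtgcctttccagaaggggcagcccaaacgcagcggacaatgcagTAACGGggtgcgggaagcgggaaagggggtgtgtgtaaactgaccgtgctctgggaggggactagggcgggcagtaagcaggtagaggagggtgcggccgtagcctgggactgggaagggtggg

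The Ovol core begins 221 bases before the start of Fgf7 and 124 bases before 1 of the 2 starts of Pdgfa. The TCF/LEF core begins 233 bases before the start of Edar. Of the pair with the Ovol core, Fgf7 had a lower mean in Ovol2 BT skin, through 1 array, and Pdgfa differed by 0.02 (SE 0.14). Neither motif is in the Lhx2 window shown or in the window of its second start. A match or its absence in these windows is a description of letters and not of binding. Over the 29 windows the median GC content was 62.8%, against 52.4% over all windows in the table, and the Lhx2 window shown had 72.8%.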

How the data were processed

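Per the submitters' processing notes, the deposited values are PLIER 2.0 intensity summaries from Affymetrix Expression Console 1.1.1, on a linear scale, 1 per probe set. Neither a normalisation between arrays nor a genome build for the probe sets is named there. It holds 35557 probe sets, of which 21789 had 1 gene symbol, 1621 several and 12147 none listed; symbols were updated through Entrez numbers to RefSeq GRCm38.p6 (21698 matched). Median intensities were 303.5 and 266.0 on Ovol2 BT replicates 1 and 2 and 282.3 and 299.5 on control replicates 1 and 2. Precision is limited by the number of arrays.

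Values were used as log2(intensity + 16), which shrinks differences of dim genes, without further normalisation. A filter at the 25th percentile of gene means, a log2 level of 7.32, removed dim genes. limma 3.58.1 in R 4.3.3 fitted Ovol2 BT minus control with an intensity trend (2 residual and 3.44 prior degrees of freedom), two-sided, with Benjamini-Hochberg adjustment over 14953 genes. The fit was tested on simulated data with independent noise. These held no outlying array, so an array such as Ovol2 BT replicate 2 is not covered. The smallest p that exact permutation allows here is 0.333, so no permutation test was run. The labels call the replicates biological and name no litters, so p-values measure the spread between these pools.

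The members, the 13 marker and 5 pathway lists and the tests were chosen with earlier results of these data known. All members are named, with the 3 largest differences and any called gene of each pathway list, and defining markers. Etv5, Fgf18, Ptch1, Krt18 and the further placode genes with an unadjusted p under 0.05 were named after their values were seen. Promoter windows came from RefSeq. Alternatives were quantile normalisation, median centring, cyclic loess, offsets of 1 and 64, no filter and a 50th percentile filter, the mean over probe sets, no intensity trend, a replicate block and each array left out; a crossed replicate block was added after seeing the data.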

Additional observations from a re-analysis of the deposited data

How the results depend on the processing

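With all 4 arrays, 0 of the hair genes changed under any normalisation, offset, filter, probe set rule, variance model or block tried. Leaving out 1 array gave 0 to 6 changed hair genes: Crabp1, Fgf20, Fgf7, Lhx2, Sox9 and Trps1 without Ovol2 BT replicate 1 (6 of 31, 19.4%, where 16.4% of all genes were called), Edar and Lhx2 without Ovol2 BT replicate 2 (background 0.716%), and 0 without either control. The count over all genes, 4, was 0 with cyclic loess, 0 without the intensity trend, 9 with the replicate block and 4 to 2455 with 1 array left out. The median of the hair genes, -0.18, was -0.13 with median centring, -0.24 with cyclic loess, -0.04 (-0.0413) with the 50th percentile filter, which left fewer genes, and -0.25 to -0.0884 with 1 array left out. The median of all genes tested was 0.08 with median centring, against 0.03 without it. The causes were not tested.

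Of 31 hair genes, 18 kept a negative and 5 a positive difference under all of the 15 alternatives in which they were tested. The 8 others were near 0. Eda was 0.0409 with quantile normalisation, 0.0513 with median centring, 0.00 (0.00153) with the offset of 64 and -0.27 to 0.27 with 1 array left out. Pdgfa was -0.01 (-0.00515) with quantile normalisation and -0.0857 to 0.13 with 1 array left out. With median centring Nfatc1 was 0.0184 and Sox18 was 0.00 (0.00227). With 1 array left out Nfatc1 ran from -0.27 to 0.21, Sox18 from -0.25 to 0.16, Edaradd from -0.0732 to 0.21, Lgr6 from -0.28 to 0.37, Lrig1 from -0.0206 to 0.26 and Alpl from -0.28 to 0.48. Among other named genes Cyld ran from -1.28 to 0.11 and Pecam1 from -0.0412 to 0.26 in the same way. Sox10 was 0.0211 with quantile normalisation, 0.0514 with median centring, 0.00 (0.000469) with the offset of 64 and -0.22 to 0.22 with 1 array left out.

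Over the genes tested, arrays with the same replicate number did not deviate together (r = -0.17), so the numbers were not taken as pairs. The Y-linked genes did follow the replicate number, being high on replicate 1 of both genotypes. The replicate block changed 0 calls among the hair genes. A crossed replicate block called 5 genes overall and 0 hair genes. The number of arrays and the offset limit what can be seen for dim genes such as Eda2r and Msx1.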
